A study of Mus musculus with 15 samples.

Results

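The untreated group of this study comprised 5 peripheral blood libraries, those labelled Untreated with surgery None, of 15 libraries in all. Blood was taken from the cheek of wild-type C57BL/6 mice and total RNA was sequenced as 1 library per mouse. The other libraries came from 5 mice given αCTLA-4, an antibody that blocks an inhibitory T cell receptor, with early neck dissection (ND, removal of the cervical lymph nodes) and from 5 mice given αCTLA-4 with late ND. The labels give every sample, untreated ones included, the same tongue transplantation of 4MOSC1 cells, a mouse oral carcinoma line, and 10 days of growth, and the methods do not say separately whether the untreated mice carried tumors. The sources differ on whether late ND preceded the bleed, so "after late ND" names the group only.

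Mammalian blood holds mostly red cells, which lose their nucleus but, while young, still carry messenger RNA for hemoglobin, a tetramer of α and β globin chains, and for the enzymes of heme synthesis. Neutrophils, lymphocytes, monocytes and platelets add RNA of their own, and whole blood sequenced without removal of globin RNA is therefore known for a profile led by a few genes. In bulk blood, fewer cells of a type and less RNA per cell cannot be told apart, and this applies to every level and share given here.

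Between 5862888 and 10796099 counts per untreated mouse fell on genes (median 6266684), against 7849602 to 13924361 after late ND and 5527108 to 7182346 after early ND. A count was seen for 24478 of 55416 gene identifiers in at least 1 untreated mouse, and 9750 genes had at least 10 counts in all 5. These counts were 45.6% to 47.0% of the uniquely mapped pairs, while 51.3% to 52.6% fell on no gene. Untreated 2, the deepest library, stood apart: Rn18s-rs5, the 18S ribosomal RNA gene on chromosome 17 (GRCm39, 40157244 to 40159092), had 766 counts per 1000000 gene counts (CPM) there and 36565 to 105889 CPM in the other 4 mice. Untreated 5 stood apart by genes of skin and fat synthesis, described further on.

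The 4 adult hemoglobin genes took 48.4% ± 12.7 (SD, n = 5) of all gene counts. In untreated 1 to 5 the share was 59.97%, 31.6%, 61.7%, 46.7% and 41.9%. Untreated 2 was the lowest and untreated 3 the highest, and each mouse's 95% Wilson interval was at most 0.0793 percentage points wide, so the mice differed by far more than counting error, which is all that such intervals cover. Hbb-bs, the major β globin gene, had 266433 ± 109239 CPM (SD, n = 5), with 349376, 96031, 373192, 267573 and 245995 CPM in the 5 mice in order. Hba-a1, an α globin gene, had 151297 ± 17851 CPM (SD, n = 5), with 153016, 172278, 163628, 139515 and 128048 CPM. Untreated 2 was thus the lowest of the mice for Hbb-bs and the highest for Hba-a1. Both α genes together took 20.28% of all counts there, close to 20.16% in untreated 3 and 19.99% in untreated 1. Hbb-bt, the other adult β gene, had 33354 ± 13760 CPM (SD, n = 5), and Hba-a2, the other α gene, had 32730 ± 9883 CPM (SD, n = 5).

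The α genes together took 14.997% to 20.3% of all counts and the β genes 11.3% to 41.6%, so the mice differed mostly in β globin. The ratio of β to α counts was 2.0, 0.558, 2.06, 1.82 and 1.79 in untreated 1 to 5, and it lay between 1.60 and 2.15 after early ND and between 0.434 and 1.86 after late ND. The low ratio and the low 18S level coincided in untreated 2, and their relation was not tested. Embryonic globins were near the limit of detection. Hbb-y had 0.542 to 2.98 CPM outside hemoglobin, and Hbb-bh1, Hbb-bh2 and Hba-x had 0 counts in all 5 mice, where 3 counts of the total, the limit that 0 allows, correspond to 0.406 to 1.28 CPM.

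Hba-a1 (ENSMUSG00000069919) lies on chromosome 11 of GRCm39 from 32233186 to 32234504 and Hba-a2 (ENSMUSG00000069917) from 32246168 to 32247320. Hbb-bs (ENSMUSG00000052305) lies on chromosome 7 from 103475730 to 103482989 and Hbb-bt (ENSMUSG00000073940) from 103461727 to 103465047. The coding sequences of the α copies differ at 1 of 426 bases and those of the β copies at 1 of 441 bases in the annotated canonical transcripts. Of all 150-base windows of these coding sequences, 150 bases being the read length, 83.4% are identical between the α copies and 91.4% between the β copies. The split of counts between copies is therefore uncertain, while the α and β sums do not depend on it. Read pairs that match both copies equally have no unique position, and how many were lost from the sums in this way is not known. Coding bases 322 to 381 of the α copies and 358 to 417 of the β copies are shown because each holds the only difference, which is in capitals.
Hba-a1: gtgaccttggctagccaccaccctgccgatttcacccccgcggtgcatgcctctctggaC
Hba-a2: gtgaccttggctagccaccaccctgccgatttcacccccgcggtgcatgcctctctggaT
Hbb-bs: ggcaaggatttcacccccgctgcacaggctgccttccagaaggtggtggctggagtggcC
Hbb-bt: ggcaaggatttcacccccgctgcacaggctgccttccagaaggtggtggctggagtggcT

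Ranked by CPM over all gene counts, the genes next to hemoglobin were those of the ribosome, the mitochondrion and the maturing red cell. After Hbb-bs and Hba-a1, Rn18s-rs5 ranked 3, ahead of Hbb-bt and Hba-a2. Alas2, the erythroid enzyme that starts heme synthesis, ranked 6 with 11647 ± 3162 CPM (SD, n = 5) of all counts. The mitochondrial 16S rRNA gene mt-Rnr2 ranked 7 with 8551 ± 5239 CPM, and Bpgm, which makes the red cell's 2,3-bisphosphoglycerate, ranked 8 with 5131 ± 1815 CPM. Tmsb4x, an actin-binding peptide gene of white cells and platelets, ranked 9 with 4807 ± 2264 CPM. The neutrophil calcium-binding protein genes S100a9 and S100a8 were the only white cell markers of the lists among the 25 genes with most counts, at ranks 13 and 18.

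**Figure D1:**
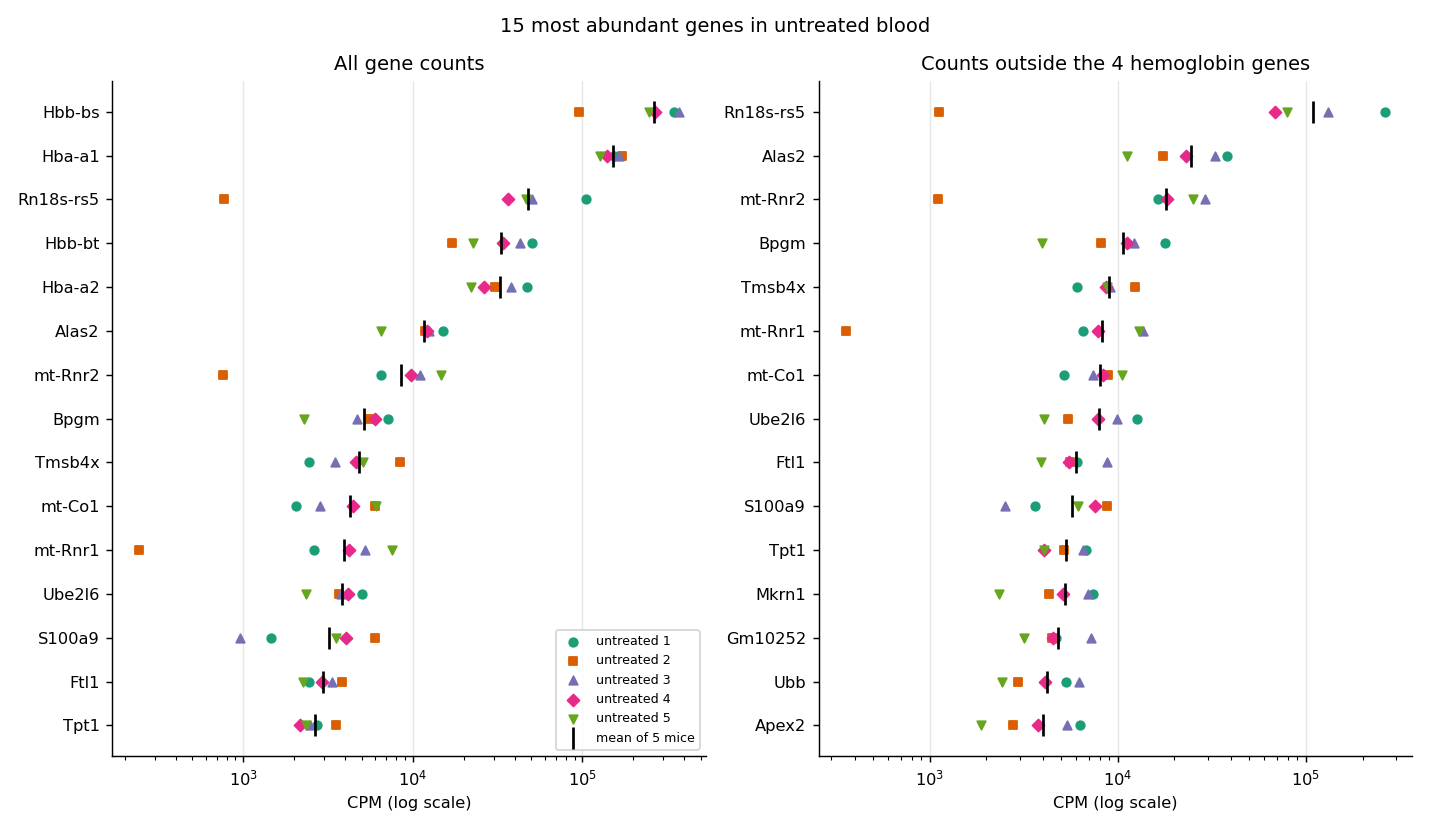
CPM (log axis) of the 15 genes with the highest mean in untreated blood, over all gene counts (left) and over the counts outside the 4 hemoglobin genes (right). Symbols are the 5 mice and black ticks their means. Untreated 2 lies far below the other 4 mice at Rn18s-rs5, with 766 against at least 36565 CPM of all counts, and at the mitochondrial rRNA genes mt-Rnr1 and mt-Rnr2.

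CPM favours long genes, so the order was also taken per kilobase of exon, hemoglobin included. On that scale Hbb-bs had 295002 ± 101842 of 1000000 length-scaled counts (SD, n = 5) and Hba-a1 290390 ± 46696, with exon lengths of 1631 and 971 bases. Both genes were measured in the same mice, so these SDs do not measure their difference within a mouse. The means include untreated 2, whose ratio of β to α counts was 0.558 against 1.79 to 2.06 in the others. Outside hemoglobin, the per-kilobase order began with Rn18s-rs5, mt-Rnr2 and Alas2. Per kilobase, S100a9 moved up from rank 10 to 8 and S100a8 from 17 to 10, while Bpgm moved down from 4 to 18 and Epb41, a membrane skeleton gene with long transcripts, from 23 to 175. The number of genes that held 50% of the counts outside hemoglobin was 349 in the mean profile by CPM and 53 per kilobase of exon.

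Counts were concentrated to very different degrees. In untreated 1 to 5, 2, 141, 2, 5 and 10 genes held 50% of all gene counts. Outside hemoglobin the numbers were 46, 691, 197, 422 and 511. Removing hemoglobin thus left untreated 1, which had the most Rn18s-rs5, the most concentrated profile, and untreated 2, which had the least, the most even. Of the 25 genes with most counts outside hemoglobin in each mouse, 8 were shared by all 5 mice and 42 appeared in at least 1; of the 100 with most, 63 were shared and 149 appeared.

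Outside hemoglobin, Rn18s-rs5 led with a mean of 109103 ± 98509 CPM (SD, n = 5), but its values were 264524, 1119, 131488, 68657 and 79727 CPM. It ranked from 1 to 76 in single mice. The mitochondrial rRNAs were also lowest in untreated 2, mt-Rnr1 having 357 CPM outside hemoglobin there and 6496 to 13645 in the others, but untreated 1, the highest for Rn18s-rs5, was the lowest of those 4. The messenger RNA of the mitochondrial oxidase subunit mt-Co1 was not low in untreated 2, at 5141, 8814, 7378, 8306 and 10484 CPM. Untreated 2 was therefore low in both kinds of ribosomal RNA and second highest in mt-Co1. An identifier with no entry in the annotation used, ENSMUSG00000118642, ranked 19 and had 107 CPM outside hemoglobin in untreated 2 against 2469 to 7181 in the others.

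Of the marker lists, the erythroid list, which is also the longest, took the largest share outside hemoglobin. The lists differ in size, so their order does not rank the cell types. The 39 measured genes of the erythroid list took 5.55% ± 2.50 (SD, n = 5) of the counts outside hemoglobin, with 8.70%, 3.94%, 7.06%, 5.69% and 2.36% in the 5 mice. Alas2 (chromosome X, 149330371 to 149353634) alone held 44.3% ± 2.73 of the list, with 37889, 17354, 32663, 22912 and 11173 CPM outside hemoglobin. Bpgm had 17767, 8157, 12255, 11246 and 3927 CPM on the same scale. Untreated 1 was the highest and untreated 5 the lowest of the mice in both. Mkrn1, a ubiquitin ligase gene abundant in red cell precursors, had 5217 ± 2045 CPM, and Bnip3l, which serves the clearance of mitochondria from reticulocytes, 2964 ± 1271 CPM outside hemoglobin (SD, n = 5 each). Of the 21 erythroid genes with a mean of at least 50 CPM, 14 were highest in untreated 1 and 19 lowest in untreated 5.

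The 34 measured genes of the neutrophil list took 1.78% ± 0.801 (SD, n = 5) of the counts outside hemoglobin, with 1.11%, 2.66%, 0.799%, 2.36% and 1.98% in the 5 mice. S100a9 had 3632, 8753, 2518, 7564 and 6102 CPM on that scale, and S100a8, its binding partner, 2222, 5634, 1525, 5109 and 4006 CPM. Both were lowest in untreated 3 and highest in untreated 2. Csf3r, the receptor for granulocyte colony-stimulating factor, had 2120 ± 929 CPM, and Retnlg, a secreted neutrophil protein gene, 1177 ± 654 CPM outside hemoglobin (SD, n = 5 each). The ratio of the erythroid to the neutrophil share was 7.83, 1.48, 8.84, 2.41 and 1.19, so the balance of these lists separated untreated 1 and 3 from the other mice.

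Platelet genes took 0.852% ± 0.225 (SD, n = 5) of the counts outside hemoglobin, from 0.621% in untreated 1 to 1.21% in untreated 2. Their leading genes were Nrgn, which binds calmodulin and is abundant in platelets, at 2239 ± 715 CPM, the chemokine precursor gene Ppbp at 1575 ± 483 CPM and platelet factor 4 (Pf4) at 889 ± 286 CPM outside hemoglobin (SD, n = 5 each). B cell genes took 0.216% ± 0.0473 and T cell genes 0.212% ± 0.0589. The lists hold 15 and 26 genes. The T cell list includes receptor constant genes such as Trbc2, while the B cell list leaves out immunoglobulin segments, which took 0.214% of these counts. The shares therefore do not compare the amounts of B and T cell RNA. Cd79a, part of the B cell receptor complex, had 267 ± 66.9 CPM and Tcf7, a transcription factor of naive and memory T cells, 216 ± 47.4 CPM outside hemoglobin. Monocyte genes took 0.149% ± 0.0400, led by F13a1, the coagulation factor XIII A chain gene, at 318 ± 105 CPM and the chemokine receptor gene Ccr2 at 287 ± 90.1 CPM. Natural killer and cytotoxic genes took 0.0342% ± 0.0116, with granzyme A (Gzma) at 74.3 ± 25.1 CPM.

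Lists of shared functions and of rarer cells were measured in the same way. MHC class I genes took 0.595% ± 0.173 and class II genes 0.273% ± 0.0480 of the counts outside hemoglobin, led by B2m at 2118 ± 741 CPM and by the invariant chain gene Cd74 at 952 ± 161 CPM (SD, n = 5 each). Interferon-induced genes took 0.262% ± 0.104, of which Rsad2, an antiviral enzyme, made up 39.5% ± 12.3. Cell cycle genes took 0.0373% ± 0.00835, of which Ube2c, a ubiquitin-conjugating enzyme of mitosis, made up 55.4% ± 13.9. Eosinophil, basophil and mast cell genes (0.00645% ± 0.00232), dendritic cell genes (0.00381% ± 0.000449) and plasma cell genes (0.00195% ± 0.000828) stood beside skeletal muscle genes (0.00200% ± 0.000416) and genes of stroma and endothelium (0.00336% ± 0.00129), which mark tissue outside blood and are given as the background level. The Wilson interval of a single mouse was at most 0.00240 percentage points wide for these 5 lists. In untreated 5, the highest mouse for the plasma cell list, its gene Sdc1 had 22.6 CPM outside hemoglobin, against 1.67 to 5.79 CPM in the others.

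**Figure D2:**
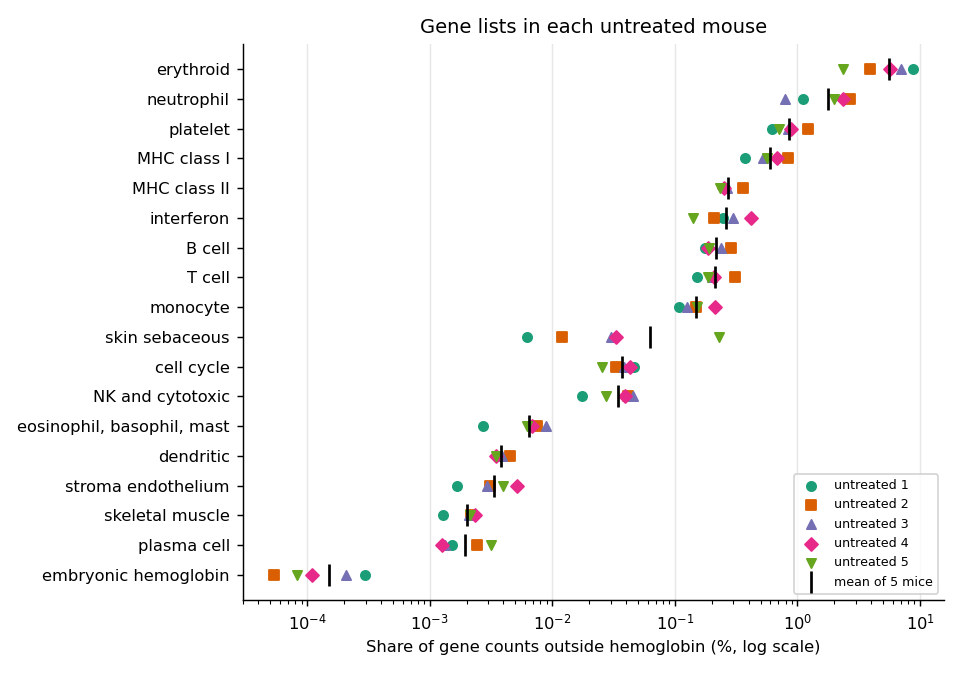
Share of the counts outside hemoglobin (percent, log axis) taken by each gene list in the 5 untreated mice, with black ticks for the means. The erythroid list leads at 5.55%, followed by the neutrophil list at 1.78% and the platelet list at 0.852%. The lists differ in size, so their order does not rank the cell types. The skin and sebaceous list is far higher in untreated 5 than in the other 4 mice.

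The start regions of 4 of these genes are printed as they stand in RefSeq (GRCm38.p6), being the leading α and β globin genes, whose shares parted in untreated 2, and the leading erythroid and neutrophil genes. Each line gives the 150 bases before the start, 5′ to 3′ along the gene: Hba-a1 at chr11:32283522-32283671 on the plus strand, Hbb-bs at chr7:103827929-103828078 on the minus strand, Alas2 at chrX:150547267-150547416 on the plus strand and S100a9 at chr3:90695722-90695871 on the minus strand. Capitals mark matches, on either strand, to AGATAA (the core bound by GATA factors), CCACCC (bound by Krüppel-like factors), CCAAT or TATAA.
Hba-a1: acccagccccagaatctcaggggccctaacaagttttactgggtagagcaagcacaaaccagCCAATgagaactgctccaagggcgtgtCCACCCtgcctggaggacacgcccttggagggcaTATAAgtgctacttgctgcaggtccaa
Hbb-bs: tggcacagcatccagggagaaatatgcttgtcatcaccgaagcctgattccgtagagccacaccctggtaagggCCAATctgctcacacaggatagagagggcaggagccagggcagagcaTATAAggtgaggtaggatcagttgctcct
Alas2: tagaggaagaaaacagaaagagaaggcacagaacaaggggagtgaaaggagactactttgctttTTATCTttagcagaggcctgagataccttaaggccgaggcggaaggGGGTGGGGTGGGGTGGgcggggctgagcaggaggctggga
S100a9: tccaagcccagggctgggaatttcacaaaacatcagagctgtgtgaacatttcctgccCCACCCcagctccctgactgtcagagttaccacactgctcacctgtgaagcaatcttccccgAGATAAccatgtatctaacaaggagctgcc

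Both globin genes hold 1 CCAAT and 1 TATAA match, Hba-a1 holds 1 CCACCC match as well, Alas2 holds 1 AGATAA match and 3 CCACCC matches that overlap each other, and S100a9 holds 1 AGATAA and 1 CCACCC match. Among 32544 RefSeq start regions of the same length, 24.4% hold CCAAT, 14.2% TATAA, 5.68% AGATAA and 19.8% CCACCC. Only the exact letters were sought, so similar ones, such as ccacaccc in Hbb-bs, are not marked. A match describes the letters and is not a measured binding site, and the lack of a match does not show that no factor binds.

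By gene type, protein-coding genes other than those for hemoglobin, ribosomal proteins and the mitochondrial genome took 76.4% ± 9.64 (SD, n = 5) of the counts outside hemoglobin. Nuclear rRNA took 10.9% ± 9.85, with 26.5%, 0.113%, 13.1%, 6.87% and 7.97% in the 5 mice. Ribosomal protein genes took 3.70% ± 0.450, led by Rplp0 at 1738 ± 266 CPM, mitochondrial rRNA 2.62% ± 1.61 and mitochondrial protein-coding genes 1.90% ± 0.620. Ribosomal protein genes were steady between the mice where ribosomal RNA was not. Long noncoding RNA genes took 2.36% ± 0.353, immunoglobulin segments 0.214% ± 0.0433, led by Ighm at 740 ± 131 CPM, T cell receptor segments 0.0411% ± 0.0135, led by Trbc2 at 125.7 ± 37.8 CPM, and pseudogenes 0.386% ± 0.0459. Small noncoding RNA genes took 0.0995% ± 0.0128, and identifiers with no entry in the annotation 0.633% ± 0.259.

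**Figure D3:**
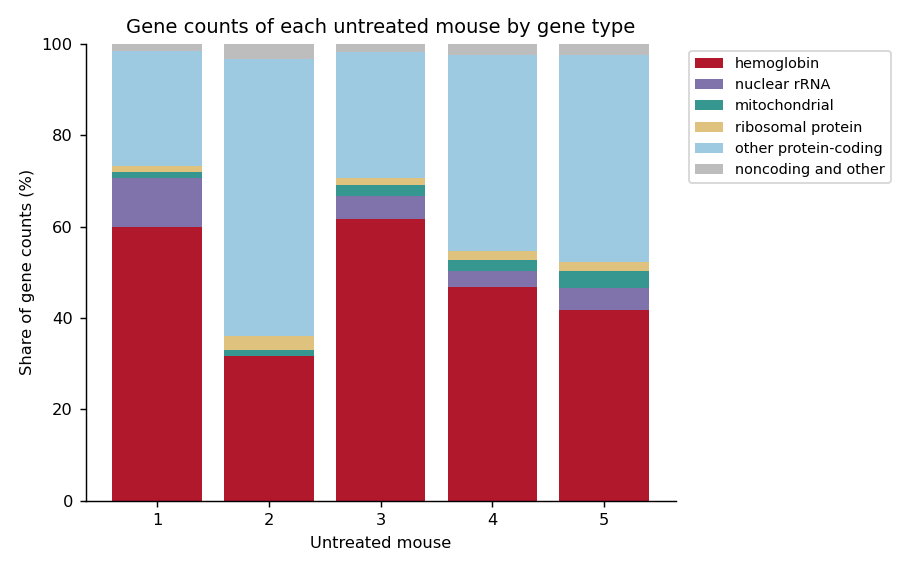
Share of all gene counts (percent, stacked to 100) in each untreated mouse, by gene type. Hemoglobin ranges from 31.6% in untreated 2 to 61.7% in untreated 3, and nuclear rRNA from 0.0774% in untreated 2 to 10.6% in untreated 1.

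Some abundant noncoding or unlikely genes overlap an abundant gene on the opposite strand. The strand setting of the counting is not given in the sources used here, so reads of such partners cannot be told apart. In untreated mice 1.24% to 2.35% of the uniquely mapped pairs were ambiguous between genes. Gm11175, with 100% of its exon bases opposite Jund, still had 0.726 to 0.899 times the counts of Jund. What these values say of the strand setting was not tested. Gm10244, the long noncoding RNA gene with most counts, had 2484, 1376, 2380, 1696 and 775 CPM outside hemoglobin, and 55.1% of its exon bases lie opposite Mkrn1. Its counts were 0.337, 0.321, 0.342, 0.330 and 0.330 times those of Mkrn1, a ratio whose coefficient of variation (CV) of 2.43% compares with 40.9% for its own level. Apex2, a DNA repair gene, shares 311 bases with the opposite strand of Alas2 and had 0.16 to 0.168 times its counts in the 5 mice, with a CV of 1.80% against 44.9% for its own level. Gm10252, opposite Ftl1, the ferritin light chain gene, had 0.767 to 0.824 times the counts of Ftl1. The counts of these 3 genes thus moved with their partners from mouse to mouse. In 19 such pairs the gene had at least 100 CPM and a more abundant partner. It also had at least 40% of its exon bases opposite, or at least 100 opposite bases and a partner of at least 5 times its level. The ratio was steadier than the gene's own level in 18, with a median CV of 8.46% against 25.3%. A factor shared by a whole library, such as its rRNA content, cancels in any ratio between genes. Pairs that do not overlap were not measured, so what the overlap adds was not tested. Genes with at least 50% of their exon bases opposite a more abundant gene held 20.8% ± 2.89 (SD, n = 5) of the long noncoding RNA counts and 69.6% ± 4.57 of the small noncoding RNA counts. The next long noncoding genes were Malat1, a nuclear RNA, at 1337 ± 353 CPM, Etohd2 at 699 CPM and Xist, which coats the inactive X chromosome, at 696 ± 177 CPM.

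The mice resembled each other in the order of genes and differed in scale. Over 9746 genes outside hemoglobin with at least 10 counts in every mouse, Spearman's correlation between pairs of mice, a description across genes that are not independent, ran from 0.906 (untreated 1 and 5) to 0.968 (untreated 2 and 4). Over the 3297 genes with a mean of at least 50 CPM outside hemoglobin, the median CV between mice was 46.1% on all gene counts, 26.3% outside hemoglobin and 18.7% once nuclear rRNA was left out as well. Outside hemoglobin, 2190 of these genes were highest in untreated 2 and 2549 lowest in untreated 1, the mice with the least and the most Rn18s-rs5. The spread beyond counting error, given by edgeR as a common biological coefficient of variation after TMM scaling, was 0.240 in untreated mice, 0.232 after early ND and 0.223 after late ND. It was 0.200 without untreated 5 and 0.491 when library totals replaced TMM.

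Among genes of at least 50 CPM, Map2k2, a kinase of the MAPK cascade, had the lowest CV, 4.20%, with 122, 119, 127, 114 and 125 CPM outside hemoglobin. The CVs given here are on counts that include nuclear rRNA, 0.113% to 26.5% of them by mouse. The order of genes by CV can differ once nuclear rRNA is left out. Rnf14, a ubiquitin ligase gene, had 66.3 ± 3.6 CPM, and Spop, a substrate adaptor of a ubiquitin ligase, 228 ± 14.8 CPM (SD, n = 5 each). By group, the median CV was 15.6% over 73 ribosomal protein genes, 22.7% over 14 B cell genes, 44.8% over 21 erythroid genes and 48.9% over 22 neutrophil genes. All 21 T cell genes of at least 50 CPM were highest in untreated 2, as were 13 of the 14 B cell genes, beside 2190 of all 3297 genes.

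The most variable genes were those of fat synthesis. All 46 genes with a CV above 100% were highest in untreated 5. Scd1, which desaturates fatty acids, had 287, 406, 538, 571 and 5216 CPM outside hemoglobin in the 5 mice. Elovl6, a fatty acid elongase, had 21.3, 45.0, 103, 94.0 and 763 CPM, and Elovl3, an elongase of skin glands, 23.4, 27.9, 46.3, 68.4 and 526 CPM. Untreated 5 was several times above each other mouse for all 3, and untreated 1 was the lowest. Cidea, a lipid droplet protein, had the highest CV, 170%, and Me1, Sptlc3, Chpt1, Sphk1, Tlcd2 and Dgat2l6, with CVs from 153% to 165%, completed the 10 most variable. The skin and sebaceous list, of which 4 of 12 genes had at least 10 counts in every mouse, took 0.00618%, 0.0120%, 0.030%, 0.0333% and 0.230% of the counts outside hemoglobin. It ranged from 0.0185% to 0.171% after late ND and from 0.00683% to 0.122% after early ND, so single mice of both other groups were high as well. The keratin gene Krt79 had 42.4 CPM in untreated 5 and 0.426 to 6.89 CPM in the others. The keratin genes of the outer skin were near 0 in all mice. Among them, Krt5 had 2.48 CPM in untreated 5 and 0.276 to 0.834 in the others. Krt14 had 1.38 CPM in untreated 5 and 0 to 0.852 in the others. Krt10 had 0.551 CPM in untreated 5 and was highest in untreated 3, at 1.67 CPM.

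**Figure D4:**
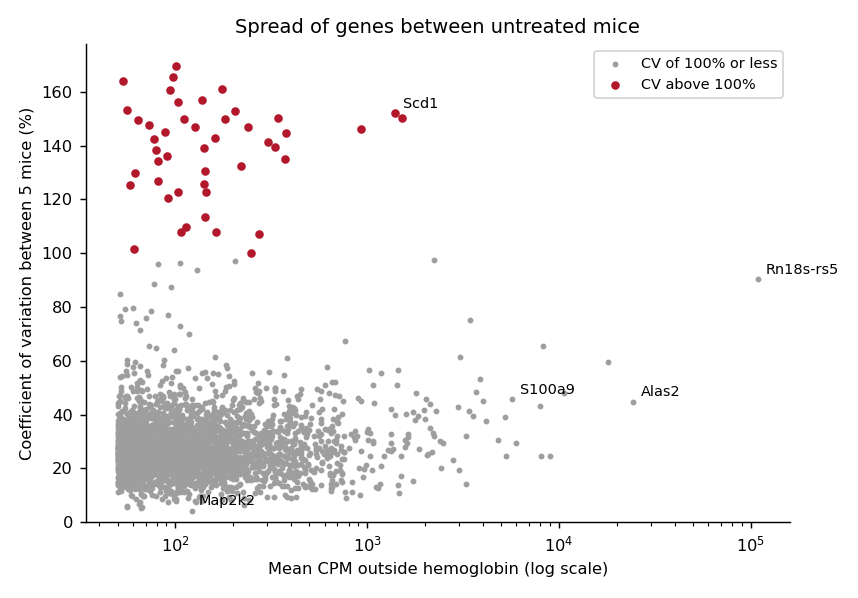
Coefficient of variation between the 5 untreated mice (percent) against mean CPM outside hemoglobin (log axis) for 3297 genes with a mean of at least 50 CPM, 1 point per gene. The 46 genes above 100% are in red, Scd1 among them at 1404 CPM and 152%, and Map2k2 is the lowest at 4.20%. Nuclear rRNA is kept in the counts.

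Untreated mice were then compared with each ND group, with 1 library per mouse. Within a group, differences between mice and between libraries, such as the low 18S level of untreated 2, cannot be told apart. The p-values set each group difference against that joint spread. Against early ND, 0 of 31 share measures (hemoglobin, 18 lists and 12 gene types) passed and 0 had an unadjusted p under 0.05. The smallest p was that of the neutrophil share, 1.78% in untreated mice and 1.00% after early ND (p = 0.0952 in an exact permutation test over mice, two-sided, and 0.830 after Benjamini-Hochberg adjustment). Gene by gene, edgeR's quasi-likelihood test called 0 of 12151 genes, 0% in either direction, while 539 had an unadjusted p under 0.05 and DESeq2's Wald test called 1. S100a8 had 3699 ± 1784 CPM outside hemoglobin in untreated mice and 1661 ± 812 after early ND (log2 difference 1.17, SE 0.39, edgeR adjusted p = 0.938). A p that misses the threshold does not show that these groups are alike.

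Against late ND, untreated mice had higher hemoglobin and erythroid shares and lower shares of the monocyte and dendritic lists. The hemoglobin share was 48.4% ± 12.7 in untreated mice and 21.97% ± 6.73 after late ND (SD, n = 5 each), and the erythroid share of the remaining counts 5.55% ± 2.50 and 1.67% ± 0.396. The monocyte share was 0.149% ± 0.0400 and 0.336% ± 0.0409, and the dendritic share 0.00381% ± 0.000449 and 0.00710% ± 0.000965. Most of the dendritic difference lay in Flt3 and Cd209a, while Ccr9, the leading gene of that list, had 13.6 and 13.3 CPM outside hemoglobin and Xcr1 3.30 and 3.13. The dendritic share of untreated mice was close to that of stroma and endothelium, 0.00336% ± 0.00129, given above as background. The cell cycle share was 0.0373% ± 0.00835 and 0.0218% ± 0.00274, but without Ube2c it was 0.0158% ± 0.00296 and 0.0157% ± 0.00144, so the difference lay in Ube2c. For each of these 5 of the 31 measures the groups did not overlap (p = 0.00794 in the same exact test, the smallest that 5 against 5 allows, and 0.0492 once adjusted), while 9 had an unadjusted p under 0.05. Without any 1 mouse 0 of 31 passed, a design whose smallest p is 0.0159, and the adjusted p was then at least 0.0547. Rn18s-rs5 moved with the comparison, at 109103 ± 98509 against 16776 ± 15818 CPM outside hemoglobin, and 1 untreated and 2 late ND libraries had under 1000 CPM of all counts of it. The part of these values in the differences was not tested. Among the other libraries, 4 against 3, 0 of 31 measures passed, and the smallest p that this size allows is 0.0571.

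**Figure D5:**
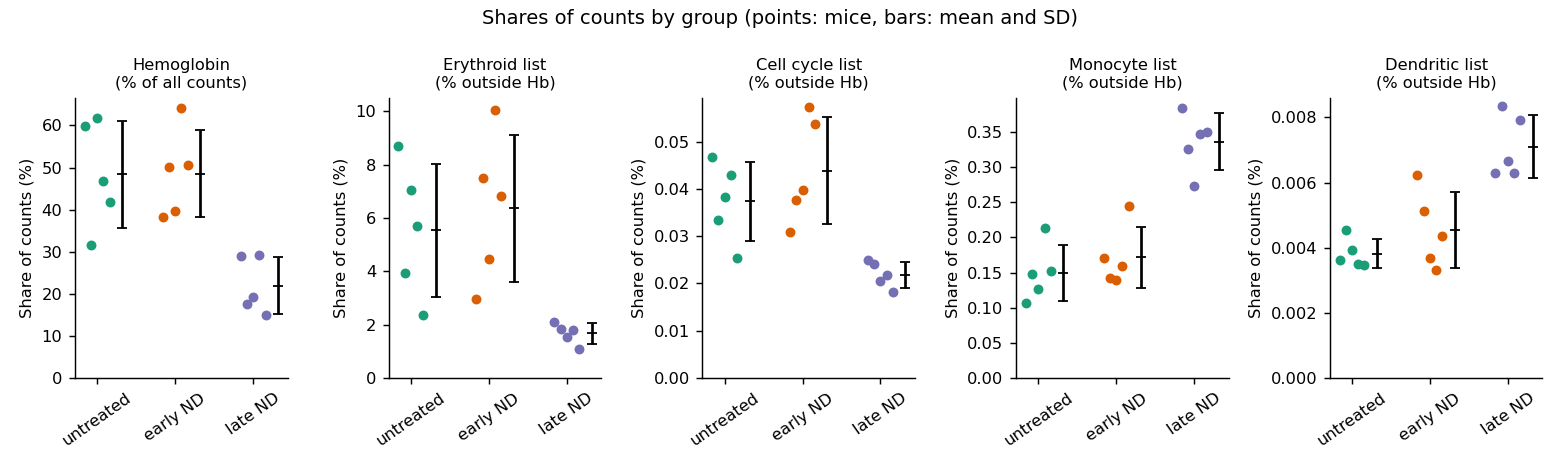
Shares of counts (percent) in untreated, early ND and late ND mice for the 5 measures that differed between untreated and late ND mice. Points are mice, and black bars give mean and SD (n = 5 per group). No untreated mouse overlaps a late ND mouse in any panel, while untreated and early ND mice overlap in all.

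Gene by gene, edgeR's quasi-likelihood test, adjusted over the 13547 genes tested, called 272 genes higher in untreated than after late ND, 2.01% of those tested, and 134 lower, 0.989%. Scaling by library totals in place of TMM moved the median difference of all genes from -0.002 to -0.91 and the calls to 90 higher and 7484 lower, so all directions here are relative to the median gene. Of the 39 erythroid genes 36 were tested and 24 were higher, with a median log2 difference of 2.04, and 0 were lower. Bnip3l had 2964 ± 1271 CPM outside hemoglobin in untreated mice and 907 ± 209 after late ND, and each untreated mouse lay above each late ND mouse (log2 difference 2.21, SE 0.40, edgeR adjusted p = 0.0242). The hemoglobin genes themselves, with log2 differences from 1.93 to 2.68, did not pass (edgeR adjusted p from 0.0570 to 0.192).

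Of the 100 genes with most counts outside hemoglobin in untreated blood, 36 were higher in untreated mice and 0 lower. These genes were chosen by their level in the same untreated libraries, which partly fixes that direction, so the count is a description and not a test. Among the first 10 of them in the order of the test were Bnip3l, Mkrn1, Apex2, Gm10244, Oaz1, Isca1, Marchf2, Isg20 and Cdr2, of which Apex2 and Gm10244 lie opposite Alas2 and Mkrn1. Isca1, which serves iron-sulfur cluster assembly, had 1830 ± 723 against 593 ± 163 CPM outside hemoglobin, a log2 difference of 2.12. Oaz1, a regulator of polyamine synthesis, had 3269 ± 1046 against 1353 ± 295 CPM, a log2 difference of 1.74. Beside the list counts that follow, 2.01% of all tested genes were higher in untreated mice. Of 16 cell cycle genes 13 were tested and 2, Ube2c and Birc5, were higher. Of 26 T cell genes 5 were higher, with log2 differences of 0.59 for Thy1 and 0.74 for Trbc2. All 5 turned lower under library totals, to -0.30 for Thy1 and -0.16 for Trbc2. Of the 24 erythroid genes 23 kept their direction under library totals, the exception being the transferrin receptor gene Tfrc. Of the 14 interferon-induced genes tested 2, Rsad2 and Isg15, were higher, at 1075 ± 550 against 284 ± 127 CPM and 336 ± 148 against 114 ± 57.4 CPM outside hemoglobin (SD, n = 5 each). Others did not pass, among them Oasl2 at 298 against 399 CPM and Oas3 at 184 against 284 CPM.

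Of the monocyte list 6 of 18 genes were lower in untreated mice and of the dendritic list 2 of the 7 tested, beside 0.989% of all genes, and these 8 had the same direction under TMM, DESeq2 size factors and library totals. The other 12 and 5 did not pass, among them Cd300e at 11.6 against 9.53 CPM outside hemoglobin. Ccr2, which draws monocytes out of the marrow, had 287 ± 90.1 CPM outside hemoglobin in untreated mice and 788 ± 143 after late ND (log2 difference -1.11, SE 0.18, edgeR adjusted p = 0.0242). Csf1r, the receptor for macrophage colony-stimulating factor, had 134 ± 28.5 and 283 ± 44.4 CPM (log2 difference -0.73, SE 0.16, edgeR adjusted p = 0.0322). Adgre1, Cd68 and Fn1 of the monocyte list were lower as well. Flt3, a receptor of dendritic cell precursors, had 6.52 ± 1.55 and 20.4 ± 3.56 CPM (log2 difference -1.28, SE 0.20, edgeR adjusted p = 0.0242), and Cd209a 3.80 ± 0.564 and 14.4 ± 3.08 CPM. These levels are low, the fewest counts in an untreated library being 15 for Flt3 and 10 for Cd209a. None of the 15 B cell, 20 tested platelet or 15 natural killer and cytotoxic genes was called by edgeR in this comparison. Of 30 tested neutrophil genes, 2 were lower, Chil3 and Prtn3.

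These gene calls were not stable when single mice were left out. A smaller group also has less power to pass adjustment, and what part this had was not tested. With all mice, 2299 genes had an unadjusted p under 0.05 in edgeR. Without untreated 3, late ND 1, late ND 4 or late ND 5 edgeR called 0 genes in either direction, with 1821 to 2219 genes at an unadjusted p under 0.05, and among the libraries with at least 1000 CPM of Rn18s-rs5 it also called 0 (1917 at an unadjusted p under 0.05). Without late ND 2 it called 0 higher and 1 lower, without late ND 3, 0 and 9, and without untreated 1, 2, 4 or 5, 110 and 47, 272 and 66, 120 and 79, and 409 and 184.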

How the data were processed

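Blood RNA of 15 mice was sequenced as 150-base paired reads. Per the labels the authors aligned reads with STAR 2.7.9, sorted them with SAMtools 1.7 and counted genes with HTSeq 0.13.5. The deposited values are raw counts per gene, and the counting's strand setting and annotation release are not given in the sources used here. Columns of samples left unused numbered 0.

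Counts were turned into counts per 1000000 (CPM) of all gene counts and of the counts outside the 4 hemoglobin genes, and per kilobase of GENCODE vM39 exon, which held 54749 of the 55416 identifiers. HTSeq rows that name no gene were left out of totals. Of 285 list symbols 281 were found. Members and lists were chosen with earlier results of these data known. For shares, an exact permutation test over mice (two-sided) was run and adjusted over 31 measures by Benjamini-Hochberg, and for genes edgeR 4.0.16 in R 4.3.3 (quasi-likelihood test, TMM, low-count filter, adjusted p under 0.05). The test was checked on simulated data. Alternatives were DESeq2 1.42.0 and its size factors, library totals, no filter, no nuclear rRNA, a replicate block, leaving out each mouse and, chosen after seeing the data, only libraries with at least 1000 CPM of Rn18s-rs5.

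Named genes were the 25 with most CPM with and without hemoglobin, up to 5 per list and gene type, the 10 most and the 10 least variable, and up to 10 of the 100 most abundant called in a comparison. Called genes of lists outside this rule, and the opposite-strand pairs, were named after their values were seen. Some genes that this rule names are not reported here. Intervals cover counting error only.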

Additional observations from a re-analysis of the deposited data

Results flagged for a closer look

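Values were listed where the highest or lowest of the 5 untreated mice lay past Dixon's critical ratio of 0.71 for 5 samples, which chance gives in about 1 of 20 groups. This held for 7 of 39 summary measures and 22 of 176 genes. The 176 genes include the most and the least variable ones, which were chosen by their spread between these same mice. All of the most variable genes so chosen are among the 22, so the count of genes cannot be set against that chance rate.

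Untreated 2 stood apart in 5 summary measures. It had 10796099 gene counts against 5862888 to 6810637 in the others, 141 genes holding 50% of all counts against 2 to 10, and a β to α globin ratio of 0.558 against 1.79 to 2.06. Its MHC class II share was 0.356% against 0.235% to 0.264%, and its immunoglobulin segment share 0.289% against 0.186% to 0.212%. Outside hemoglobin it was highest for Cd74 (1238 CPM), H2-Ab1 (591 CPM), Ighm (966 CPM), Ighd (590 CPM) and Igkc (418 CPM), genes of antigen presentation and immunoglobulin, and lowest for Cd209a (2.84 CPM). The counts outside hemoglobin include nuclear rRNA, 0.113% of them in untreated 2 and 6.87% to 26.5% in the others. Of the 3297 genes of at least 50 CPM, 2190 were highest in untreated 2. Dixon's ratio was not taken again without nuclear rRNA.

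Untreated 5 was highest in the skin and sebaceous share, 0.230% against 0.00618% to 0.0333%. The genes in which it stood apart were Scd1 (5216 CPM), Scd3 (1065 CPM), Elovl6 (763 CPM), Sptlc3 (677 CPM), Elovl3 (526 CPM), Cidea (405 CPM), Sphk1 (392 CPM), Me1 (386 CPM), Chpt1 (365 CPM), Dgat2l6 (210.3 CPM), Tlcd2 (208 CPM), Krt79 (42.4 CPM) and Sdc1 (22.6 CPM). Tnfrsf17 was at 0.275 CPM there, a single count, and at 0 in the other mice.

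The remaining values were single. Untreated 1 had the lowest skeletal muscle share, 0.00128% against 0.00209% to 0.00234%. Untreated 3 was highest for the eosinophil receptor gene Ccr3 (17.9 CPM), and untreated 4 for Gm15886 (73.9 CPM).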

How the results depend on the processing

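Between untreated and late ND mice, 5 share measures passed. The number was 0 with a replicate block, where the smallest sign-flip p is 0.0625, 0 without each mouse in turn and 0 among libraries with at least 1000 CPM of Rn18s-rs5, while it was 5 without nuclear rRNA and on the log2 scale. Against late ND, genes higher and lower numbered 272 and 134, 90 and 7484 with library totals, 537 and 281 by DESeq2, 377 and 230 with the replicate block, 0 and 0 among the libraries with at least 1000 CPM of Rn18s-rs5, and 0 to 409 and 0 to 184 without single mice. Against early ND they numbered 2 and 1 with library totals, and DESeq2 called 1 lower. Same-numbered mice did not deviate together throughout: their correlations with late ND ran from 0.030 to 0.574, 3 of 5 untreated mice being closest to their own number, and with early ND from -0.302 to 0.0800, so the numbers were not taken as pairs.

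The biological coefficient of variation of 0.240 became 0.491 with library totals, 0.32 with totals outside hemoglobin, and 0.200 to 0.259 without single mice, the lowest without untreated 5. The 349 genes holding 50% of counts outside hemoglobin became 53 per kilobase. Without nuclear rRNA the dendritic share became 0.00430%, ribosomal protein 4.16% and pseudogene 0.434%. With only genes of at least 10 counts in every mouse, embryonic hemoglobin became 0%, dendritic 0.00297%, eosinophil, basophil and mast cell 0.00404%, plasma cell 0.00106%, skeletal muscle 0.000881%, stroma and endothelium 0.00150%, pseudogene 0.266% and small noncoding RNA 0.0671%. The causes were not tested. Another 305 values moved by less than their spread or, for counts, less than 1.5 times. Lists with few counts are limited by depth.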

Other observations

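Among the 100 genes with most counts outside hemoglobin, 59 were protein-coding genes of no list, which took 12.1% of those counts, 8 were ribosomal protein genes, 7 erythroid genes (5.2%), 6 mitochondrial protein-coding genes and 4 neutrophil genes. Platelet and MHC class I genes had 3 members each. Interferon-induced genes of at least 50 CPM were highest in untreated 4 for 7 of 8, beside 323 of all 3297 genes of that level, with a median coefficient of variation of 47.9%, and all 7 mitochondrial protein-coding genes of that level were highest in untreated 5, beside 538 of all 3297.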
